A study of Rattus norvegicus with 12 samples.

Results

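The cytosolic ribosomal protein genes are the genes for the proteins of the large (60S) and small (40S) subunits of the ribosome that works in the cytosol. They were taken as the probe sets annotated with a single gene symbol of the form Rps, Rpl or Rplp followed by a number. This gave 47 probe sets for 43 genes, 30 of the large and 13 of the small subunit, out of 31042 probe sets that were not controls and 20826 with a single symbol. A probe set is the group of short oligonucleotides on the array that reports 1 transcript. Of the 43 genes, 39 had 1 probe set and 4 had 2 (Rps24, Rpl7, Rpl3 and Rpl14), and a gene with 2 was summarised by the brighter one. The RefSeq table held 78 genes of this form. A further 33 probe sets carried several symbols of which 1 had this form (ribosomal protein genes have many near-identical copies), and these were kept apart. Rplp1, Rps4x, Rpl10 and Rps27 were on such shared probe sets, so no value is given under their names, and Rplp2, Rps27a, Rpl10l and Rpl39l were not analysed here.

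RNA of Wistar rats was measured on 12 oligonucleotide arrays in 4 groups of 3. By their titles these were neonatal aorta and neonatal valve, both collected within 24 h of birth, and adult aorta and adult valve, both from males. Aorta means the proximal part of the vessel, and valve means the aortic and pulmonary semilunar valves. No treatment or genetic change is given for any group. Whether the 3 arrays of a group stand for different animals is not in the labels. The p-values therefore measure the spread between these samples, which may be technical.

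The labels go against each other for 6 arrays. Those titled adult aorta carry a tissue entry for neonatal valve, and those titled neonatal valve carry one for adult aorta, while the source names match the titles. The groups here follow the titles. Under the tissue entries, the comparison printed as adult against neonatal aorta would be one of neonatal valve against neonatal aorta, and the comparison printed as adult against neonatal valve would be one of adult valve against adult aorta; each of the other 2 would become a comparison by age. The summed signal of 13 markers of dividing cells was 20368 to 22507 on arrays titled neonatal aorta, 22448 to 32041 on those titled neonatal valve, 3642 to 7626 on those titled adult aorta and 4295 to 8118 on those titled adult valve. The arrays titled neonatal were all higher in these markers than those titled adult.

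Ribosomal proteins are needed in equal numbers, since each ribosome holds single copies of almost all of them, and their mRNAs are among the most abundant of growing cells. Their genes are read by RNA polymerase II from start sites within a run of pyrimidines (C and T), and the mRNA therefore begins with a C followed by further pyrimidines, the 5′-terminal oligopyrimidine tract. Through this tract the mTOR kinase pathway controls how strongly the mRNAs are translated, with 4E-BP and LARP1 proteins as brakes. In vessels and valves most cells are smooth muscle cells, endothelial cells, fibroblasts and valve interstitial cells, all of which need ribosomes.

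The start sites of some members are shown because a pyrimidine run is more frequent there than at the start sites of other genes, though not every member has one. The RefSeq promoter table (build GRCr8) held 38 of the 43 genes, 2 of them matched by symbol. Each window below is 40 bases, 20 either side of the annotated start, written 5′ to 3′ on the gene's own strand, with the longest run of C and T in capitals where it reached 8 bases. The first 4 genes had large differences between valve and aorta, the next 3 had small ones, and Rps27l and Rpl3l are paralogs with their own expression.
Rps24 (chr16:96497-96536, plus strand): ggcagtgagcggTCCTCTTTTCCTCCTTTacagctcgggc
Rps15 (chr7:10068096-10068135, minus strand): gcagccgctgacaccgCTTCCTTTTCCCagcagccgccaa
Rpl34 (chr2:221962264-221962303, minus strand): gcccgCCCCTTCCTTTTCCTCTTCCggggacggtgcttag
Rpl14 (chr8:129163600-129163639, plus strand): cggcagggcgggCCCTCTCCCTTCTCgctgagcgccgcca
Rps23 (chr2:23814497-23814536, plus strand): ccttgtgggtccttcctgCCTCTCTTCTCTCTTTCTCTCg
Rpl13a (chr1:104748894-104748933, minus strand): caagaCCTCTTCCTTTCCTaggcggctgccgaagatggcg
Rpl21 (chr12:13386134-13386173, minus strand): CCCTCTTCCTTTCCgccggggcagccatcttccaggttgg
Rps27l (chr8:76443638-76443677, plus strand): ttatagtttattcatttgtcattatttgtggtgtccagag
Rpl3l (chr10:14258426-14258465, plus strand): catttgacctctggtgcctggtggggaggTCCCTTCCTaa

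A run of at least 8 pyrimidines on the gene's strand lay in the window of 26 of 38 members (68.4%), against 15.5% of all 27456 promoters in the table. A C at the annotated start followed by at least 4 pyrimidines was found in 12 of 38 members (31.6%), against 2.63% of all promoters. The other 12 members had no run of that length, and in the window of Rps27l, whose product is induced by p53, the longest was 3. Of the 18 genes with the larger falls in valve 12 had a run of at least 8 and 7 had the C start; of the 18 with the smaller falls 12 had the run and 4 the C start. These counts are a description. A match describes the letters of the window only.

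All values below are deposited signals, made with the MAS5 algorithm and scaled to the same trimmed mean on every array. Every difference and test compares a gene's signal with itself across arrays, since probe sets differ in brightness; a share of all signal or a rank among probe sets only describes an array. Of the 43 genes, 40 passed the filter on low signal (above 172, the median of all values, on at least 3 arrays): 27 of the large and 13 of the small subunit. Rpl28, Rpl30 and Rpl3l did not, nor did the second probe set of Rpl14. Among the 40 genes, 37 were bright (mean log2 signal above 12), and Rpl39, Rps27l and Rps13 were dimmer.

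Aorta arrays read the ribosomal protein genes brighter than valve arrays did, at both ages. The median signal of the 37 bright genes was 20654, 21179 and 20399 on the neonatal aorta arrays and 23806, 16275 and 22134 on the adult aorta arrays. It was 10107, 11738 and 10964 on the neonatal valve arrays and 13429, 10350 and 11666 on the adult valve arrays. Every aorta array lay above every valve array, and the ages overlapped within each tissue. Their share of all signal was 2.89% to 3.75% in aorta and 1.82% to 2.20% in valve. In aorta the dimmest of the 37 probe sets stood at percentile 98.8 or above of all probe sets on its array. In valve it stood between percentiles 89.8 and 95.2.

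**Figure D1:**
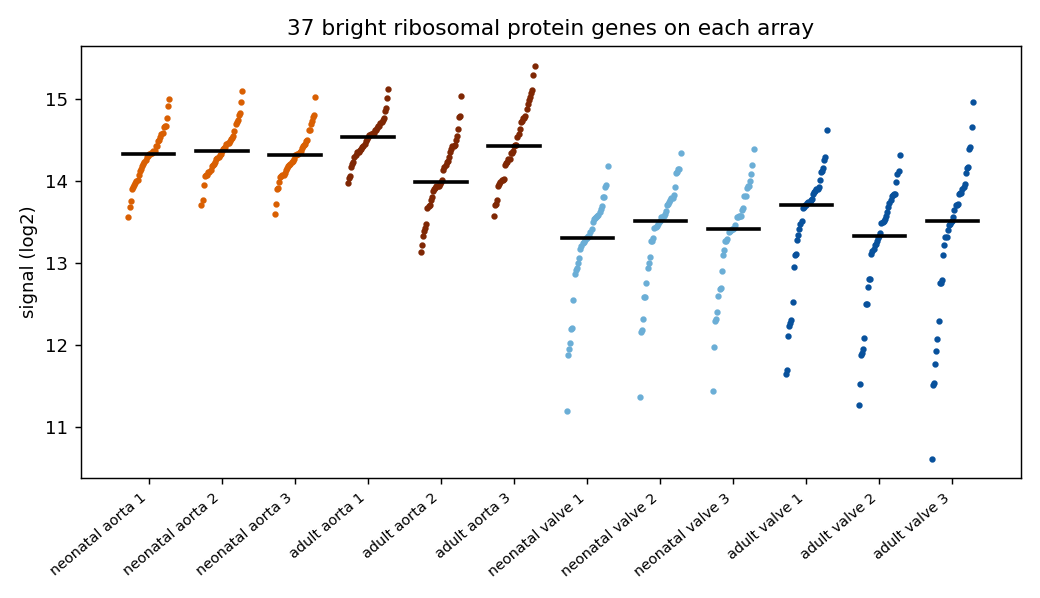
Log2 signal (vertical axis) of the 37 bright ribosomal protein genes on each of the 12 arrays (horizontal axis); each point is 1 gene, genes are sorted by signal within an array, and the bar is the median. The medians of the 6 aorta arrays lie above those of the 6 valve arrays, and the lowest points of the valve arrays lie further below their medians.

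Some properties of the arrays moved with tissue. Beta-actin has control probe sets at either end of its mRNA, and the 3′ signal over the 5′ signal, a measure of how complete the labelled RNA was, lay between 1.40 and 2.59 in aorta. In valve it lay between 7.24 and 14.0. For GAPDH the same ratio lay between 0.917 and 1.13 in aorta and between 1.97 and 5.13 in valve. The median signal of all probe sets was 182 to 202 in aorta and 133 to 169 in valve. These ratios do not overlap between tissues, so their part in any tissue difference below and the part of tissue itself cannot be told apart. Adult aorta 1 and neonatal aorta 2 stood apart by markers of squamous epithelium (median log2 signal 14.2 and 12.9), and neonatal valve 3 by markers of thymocytes (11.4). Adult valve 3 stood apart by markers of red blood cells (12.5, against 5.42 to 8.92 on the other 11 arrays) and had the lowest median of the smooth muscle markers (7.63). The counts between tissues are also given without the first 3 arrays and without adult valve 3.

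Age came first in the comparisons, which asked whether expression changed from birth to adulthood. No ribosomal protein gene passed the test for a change with age in either tissue. In aorta 0 of 40 genes passed the test (limma with Benjamini-Hochberg adjustment over all 18552 probe sets tested, adjusted p under 0.05), where 7.31% of all probe sets passed. The median log2 difference, adult minus neonatal, was -0.01 over the 40 genes, with a range of -0.57 to 0.33, against -0.08 over all probe sets, and 0 of 40 had an unadjusted p under 0.05. In valve 0 of 40 genes passed, where 9.21% of all probe sets did, the median was 0.13 with a range of -0.75 to 0.45, and 2 (Rpl14 and Rpl27) had an unadjusted p under 0.05. With arrays weighted by quality, 3 genes (Rpl18, Rps28 and Rps9) fell in aorta, where 15.8% of all probe sets fell. The interaction test of limma, which asks whether the age difference itself differs between tissues, passed for 0 of 40 genes and for 0.0593% of all probe sets, and 0 of 40 had an unadjusted p under 0.05.

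In aorta the adult arrays were all above the neonatal ones for 1 gene, Rps3a (10.7% of all probe sets), and all below for 0 (20.2%). In valve they were all above for 3 genes, Rpl7, Rpl13a and Rpl21 (14.9%), and all below for 2, Rpl14 and Rps9 (18.5%).

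The standard error of an age difference was 0.14 to 0.31 in log2 for the 37 bright genes. Over these genes the 95% confidence intervals reached at most from -0.81 to 0.69 in aorta and from -1.43 to 0.85 in valve.

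Rps6, the ribosomal protein that S6 kinases phosphorylate, shows the pattern in single arrays. Its signal was 22981, 22543 and 22324 on neonatal aorta arrays and 26144, 22136 and 27125 on adult aorta arrays, a log2 difference of 0.15 (SE 0.16, limma adjusted p = 0.638). The 2 ages overlapped in aorta. In valve its signal was 12666, 15662 and 15743 at birth and 14690, 14582 and 18563 in adults (0.12, SE 0.16, limma adjusted p = 0.694), again with overlap. Rpl14, a large subunit protein, had the largest difference with age in valve: 3971, 4581 and 5043 at birth and 3211, 3823 and 1568 in adults (-0.75, SE 0.31, limma adjusted p = 0.151). All 3 adult arrays were below the neonatal ones, and the lowest, adult valve 3 (the array with high red blood cell markers), was below the other 2 adult arrays by more than those differed from each other.

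The same arrays gave these counts for other gene lists, where 5.37% of all probe sets fell with age in aorta and 5.21% in valve. Of 13 markers of dividing cells 12 fell in aorta (median log2 difference -2.45) and 12 fell in valve (-3.15). Of 44 ribosome biogenesis genes, whose products make and assemble ribosomal RNA, 5 fell in aorta and 0 rose, with a median of -0.54. These were Rrs1 (-1.36, SE 0.33), a factor of 60S assembly, the box C/D ribonucleoproteins Fbl (-1.06, SE 0.28) and Nop58 (-1.06, SE 0.27), the box H/ACA protein Gar1 (-0.96, SE 0.19) and the 40S export factor Ltv1 (-0.84, SE 0.23). In valve 1 of 44 fell, the RNA polymerase I subunit gene Polr1e (-1.16, SE 0.29), with a median of -0.20. Of 73 mitochondrial ribosomal protein genes, which encode the separate ribosome of mitochondria, 0 passed in aorta (median -0.23) and 13 fell in valve (median -0.66), among them Mrpl12 (-1.33, SE 0.28) and Mrps11 (-1.05, SE 0.22). Of 34 translation factor genes 0 passed in either tissue. The biogenesis count in valve and the translation factor counts are below the share of all probe sets.

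The comparison of valve with aorta at the same age gave the differences. In neonatal tissue 33 of 40 ribosomal protein genes were lower in valve and 0 were higher (limma, adjusted p under 0.05), where 19.3% of all probe sets were lower and 13.3% higher. The median log2 difference, valve minus aorta, was -0.83 (1.78-fold lower), with a range from -3.35 to 0.05, against a median of -0.09 over all probe sets. In adult tissue 30 of 40 were lower and 0 were higher, where 19.9% of all probe sets were lower and 17.3% higher. There the median was -0.80 (1.75-fold lower), with a range from -3.03 to 0.77, against -0.05 over all probe sets. These counts depend on how the arrays are scaled, and with each array centred on its median they were 19 lower in neonatal tissue, and 17 lower and 1 higher in adult tissue. With quantile normalization they were 18 lower and 1 higher, and 15 lower and 2 higher. The share of all probe sets lower in valve was 12.8% and 12.2% with median centring and 15.9% and 16.1% with quantile normalization.

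The counts also depended on which arrays gave the spread. On neonatal aorta 2 and 3 the RNAs added as labelling controls were near absent (2.52 to 54.6 over 7 probe sets, against 137 to 13879 on the other arrays). With these 2 arrays as a block, which leaves neonatal aorta 1 to stand for its group, 14 of 40 genes were lower in neonatal valve, where 5.44% of all probe sets were. With the spread taken from the 6 adult arrays alone, 17 of 40 were lower in adult valve (10.9% of all probe sets), and with the 6 neonatal arrays alone 38 of 40 were lower in neonatal valve (27.9%). In bulk tissue, fewer cells of a type and less RNA per cell cannot be told apart.

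On signals as deposited, other bright probe sets were lower in valve in a smaller share. Their values under the other scalings are not given here. Among 626 other bright probe sets, chosen by the same limit on mean signal, 16.8% were lower in neonatal valve (median -0.09) and 20.6% in adult valve (median -0.16). Over the 37 bright ribosomal protein genes 32 were lower in neonatal and 29 in adult valve, with medians of -0.84 and -0.89. All 3 valve arrays read below all 3 aorta arrays for 38 of 40 genes at birth and for 29 of 40 in adults, where 33.5% and 23.2% of all probe sets did so. The adult valve arrays were all above the adult aorta arrays for 1 gene, Rps13 (21.1% of all probe sets). Without the 3 arrays that stood apart, 24 genes were lower in neonatal and 26 in adult valve (13.9% and 18.6% of all probe sets). Without adult valve 3, 28 were lower in adult valve (18.0%).

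**Figure D2:**
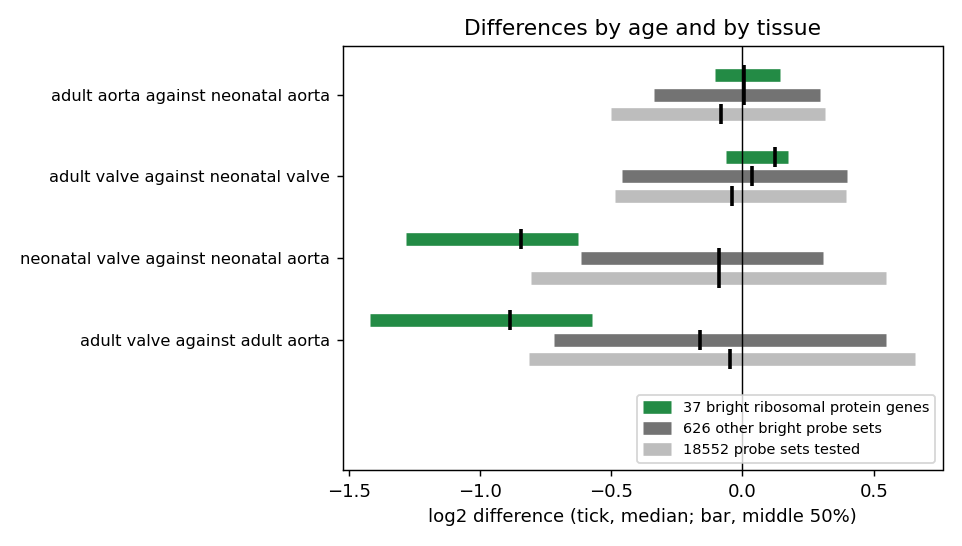
Log2 differences (horizontal axis) in the 4 comparisons for the 37 bright ribosomal protein genes, the 626 other bright probe sets and all 18552 probe sets tested; the tick is the median and the bar the middle 50% of genes or probe sets. By age the ribosomal protein bars are narrow and near 0, and between tissues their medians are -0.84 and -0.89 while the other medians stay between -0.16 and -0.05, on signals as deposited. The 626 other bright probe sets are not matched to the 37 genes in brightness.

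Both subunits took part. In the large subunit 23 of 27 genes were lower in neonatal valve (median -0.82) and 20 of 27 in adult valve (median -0.72). In the small subunit 10 of 13 were lower at each age, with medians of -1.08 and -0.90. The genes kept their order: over 40 genes the difference in neonatal tissue and that in adult tissue had Pearson's r = 0.94 and Spearman's rho = 0.94, and r = 0.94 without Rps24. This is a description across genes, which are not independent replicates; the 2 comparisons share no array, but they share the probe sets. At both ages 30 genes passed, and 7 passed at neither.

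**Figure D3:**
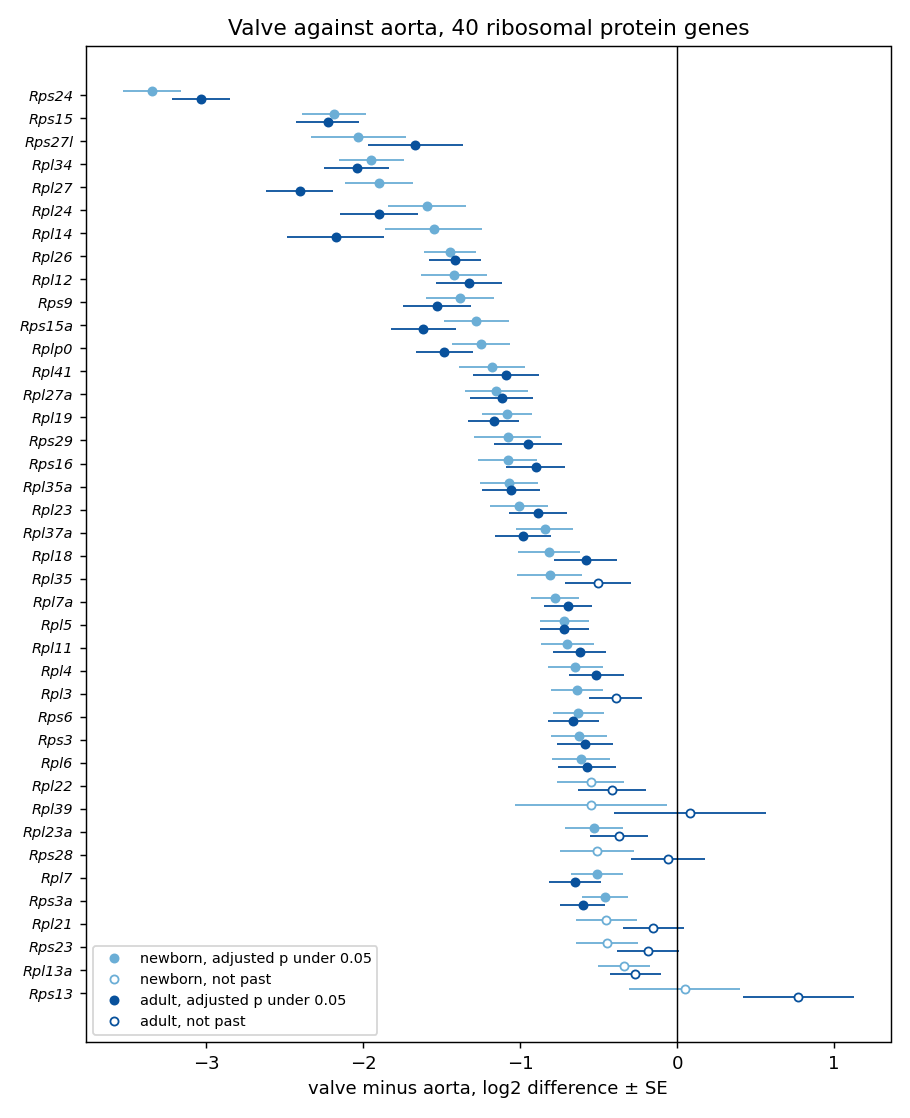
Valve minus aorta, in log2 (horizontal axis), for the 40 ribosomal protein genes tested, in neonatal (light) and adult (dark) tissue; bars are standard errors of the fit with 3 arrays a group, and filled points have an adjusted p under 0.05 on signals as deposited. Genes are ordered by the neonatal difference, from Rps24 at -3.35 to Rps13 at 0.05.

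In the small subunit Rps24 had the largest difference. Its protein is needed to process the 18S rRNA precursor, and its gene is spliced into several forms. Its brighter probe set read 24641, 29323 and 25308 on neonatal aorta and 25708, 21553 and 28514 on adult aorta arrays. On valve arrays it read 2342, 2651 and 2784 at birth and 3316, 2469 and 3505 in adults. The tissues did not overlap and the ages did. The signal in valve was 9.81% of that in aorta at birth (log2 difference -3.35, SE 0.18, limma adjusted p = 7.22e-06) and 12.2% in adults (-3.03, SE 0.18, limma adjusted p = 1.20e-05).

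Rps15, a 40S protein needed for export of the small subunit from the nucleus, came next. It read 18612, 19748 and 18334 on neonatal aorta, 20936, 15710 and 19247 on adult aorta, 3781, 4666 and 4041 on neonatal valve and 4827, 2953 and 4324 on adult valve arrays. The log2 difference was -2.19 at birth (SE 0.20, limma adjusted p = 5.77e-05) and -2.23 in adults (SE 0.20, limma adjusted p = 5.83e-05). No valve array came near the aorta arrays. Rps9, a protein that binds early in 40S assembly, was lower by -1.38 (SE 0.22) and -1.53 (SE 0.22), and Rps15a by -1.28 (SE 0.21) and -1.62 (SE 0.21).

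Rps6 was lower in valve too, by less. The neonatal difference was -0.63 (SE 0.16, limma adjusted p = 0.0123) and the adult one -0.66 (SE 0.16, limma adjusted p = 0.00866), and no valve array reached an aorta array at the same age. Its call rested on the scaling: with arrays centred on the median the differences were -0.30 and -0.27, with limma adjusted p = 0.168 and 0.193. Without neonatal valve 1 its neonatal difference of -0.53 had a limma adjusted p of 0.056. Rps3, a 40S protein at the mRNA entry site, was lower by -0.63 and -0.59 (SE 0.18 each). Its call held under 10 of 20 alternatives at birth and 10 of 19 in adults. It was lost at both ages with median centring and with quantile normalization, and at each age without some single arrays.

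At the other end, Rps23, a protein of the decoding centre, had small differences that did not pass. It read 26120, 28727 and 28248 on neonatal aorta and 18620, 20916 and 21507 on neonatal valve arrays (-0.45, SE 0.20, limma adjusted p = 0.108). In adults it read 29798, 23208 and 35474 in aorta and 25322, 20550 and 32131 in valve (-0.18, SE 0.20, limma adjusted p = 0.494), and the groups overlapped. With quantile normalization it was higher in valve at both ages (0.39 and 0.58, limma adjusted p = 0.031 and 0.004). Rps28 had differences of -0.51 (SE 0.23) and -0.06 (SE 0.23), and neither passed.

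In the large subunit Rpl27, Rpl34, Rpl24 and Rpl14 had the largest falls. Rpl27 read 20757, 21701 and 20943 on neonatal aorta, 24637, 18433 and 21251 on adult aorta, 4728, 6166 and 6231 on neonatal valve and 5049, 4346 and 2971 on adult valve arrays. The valve signal was 26.8% of the aorta signal at birth (-1.90, SE 0.21, limma adjusted p = 0.000165) and 18.9% in adults (-2.40, SE 0.21, limma adjusted p = 4.88e-05). The tissues lay well apart.

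Rpl34 read 17920, 19928 and 19794 on neonatal aorta and 4693, 5127 and 5116 on neonatal valve arrays (-1.95, SE 0.21, limma adjusted p = 0.00012). In adults it read 23007, 15306 and 22134 in aorta and 5906, 3764 and 5017 in valve (-2.04, SE 0.21, limma adjusted p = 0.0001). Each valve array was below each aorta array by a wide margin. Rpl24, which forms a bridge between the subunits, was lower by -1.59 (SE 0.25) and -1.90 (SE 0.25). Rpl14 was lower by -1.55 (SE 0.31) and -2.18 (SE 0.31; -1.79 without adult valve 3), with 12420 to 13909 on neonatal aorta and 9032 to 16144 on adult aorta arrays against the valve values given above for age. Rpl26, which can bind p53 mRNA, was lower by -1.45 and -1.42 (SE 0.17 each), and Rpl12, a protein at the base of the stalk, by -1.42 and -1.33 (SE 0.21 each).

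Rplp0, the protein that anchors the P stalk of the large subunit and a common reference gene in quantitative PCR, was lower as well. It read 20654, 20506 and 20690 on neonatal aorta, 25344, 16637 and 19076 on adult aorta, 7493, 9886 and 8789 on neonatal valve and 7921, 6720 and 6910 on adult valve arrays. The log2 difference was -1.25 at birth (SE 0.18, limma adjusted p = 0.000664) and -1.48 in adults (SE 0.18, limma adjusted p = 0.000243). By age it differed by -0.04 in aorta (SE 0.18) and -0.27 in valve (SE 0.18), and neither passed. Rpl5 and Rpl11, which with 5S rRNA bind MDM2 when ribosome assembly fails, were lower on the deposited signals. Their differences were -0.72 and -0.70 at birth and -0.72 and -0.62 in adults (SE 0.16 and 0.17). At both ages the 2 genes lost their calls with median centring and with quantile normalization. Under the alternatives their differences were as small as -0.044 and -0.060 at birth and -0.035 and -0.024 in adults.

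Rpl13a, another common reference gene, had the smallest difference of the large subunit at birth. It read 16600, 17271 and 15351 on neonatal aorta and 12314, 13490 and 13106 on neonatal valve arrays (-0.34, SE 0.16, limma adjusted p = 0.137). In adults it read 20472, 15691 and 22299 in aorta and 17891, 14747 and 15647 in valve (-0.27, SE 0.16, limma adjusted p = 0.227). The groups were apart at birth and overlapped in adults. Rpl21 (-0.45 and -0.15, SE 0.19 each) and Rpl22 (-0.55 and -0.41, SE 0.22 each) passed at neither age. Rpl3, which forms part of the wall of the peptidyl transferase centre, was lower at birth (-0.64, SE 0.17, limma adjusted p = 0.014), and its adult difference of -0.39 (SE 0.17, limma adjusted p = 0.0866) did not pass. Single arrays moved both calls: the limma adjusted p at birth was 0.052 without neonatal aorta 2 and 0.057 without neonatal valve 1, and in adults it was 0.025 without adult aorta 2 (-0.54).

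The 3 dimmer genes behaved in different ways. Rps27l, the p53-induced paralog of Rps27, read 407, 492 and 549 on neonatal aorta, 365, 412 and 538 on adult aorta, 131, 136 and 90.2 on neonatal valve and 131, 97.6 and 197 on adult valve arrays. It was lower in valve by -2.03 at birth (SE 0.30, limma adjusted p = 0.000746) and by -1.67 in adults (SE 0.30, limma adjusted p = 0.00185), with no overlap. Rps27l passed the filter on low signal through the aorta arrays, since of the valve arrays only adult valve 3 read above 172. Its tests, and its place among the genes counted lower in valve, are therefore not independent of that filter. Rpl39, a small protein lining the exit tunnel, read 930, 442 and 875 on neonatal aorta, 187, 729 and 803 on adult aorta, 443, 466 and 558 on neonatal valve and 507, 555 and 464 on adult valve arrays. These groups overlapped, and neither tissue difference passed (-0.55 and 0.08, SE 0.49 each). Adult aorta 1 held the lowest Rpl39 value of all arrays, and without it the adult difference was -0.59 (limma adjusted p = 0.144). Without the 3 arrays that stood apart Rpl39 was lower in valve by -0.99 at birth and -0.59 in adults (limma adjusted p = 0.016 and 0.047). The probe set named Rps13 read 98.1 to 194 on neonatal aorta, 93.1 to 126 on adult aorta, 95.2 to 179 on neonatal valve and 162 to 214 on adult valve arrays. Its adult difference of 0.77 (SE 0.35, limma adjusted p = 0.106) was the only one above 0.1 among the 40 genes, it did not pass, and it was called higher under both other scalings.

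Genes with 2 probe sets showed how far a value depends on the probe set that is read. Which part or form of a transcript each probe set reads was not examined. The dimmer probe set of Rps24 read 666, 600 and 551 on neonatal aorta, 345, 376 and 435 on adult aorta, 587, 548 and 603 on neonatal valve and 470, 684 and 724 on adult valve arrays. Its neonatal difference was -0.06 (SE 0.21, limma adjusted p = 0.849), and its adult difference of 0.68 (SE 0.21, limma adjusted p = 0.0248) passed in the opposite direction to the brighter probe set. The drop of more than 8-fold thus appeared on 1 of the 2 Rps24 probe sets. For Rpl7 both probe sets were lower in valve. The differences were -0.51 and -0.65 on the brighter (SE 0.17) and -1.35 and -1.14 on the dimmer (SE 0.32). The dimmer one passed the filter through the aorta arrays, since of the valve arrays only adult valve 3 read above 172. The dimmer probe set of Rpl3 had differences of 0.02 and -0.62 (SE 0.26), and neither passed. The second probe set of Rpl14 read between 1.7 and 83.3 on all arrays. The probe sets of the near absent control RNAs read up to 54.6, which 2 of these values, 83.3 and 73.5 on adult aorta 1 and 3, exceed.

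**Figure D4:**
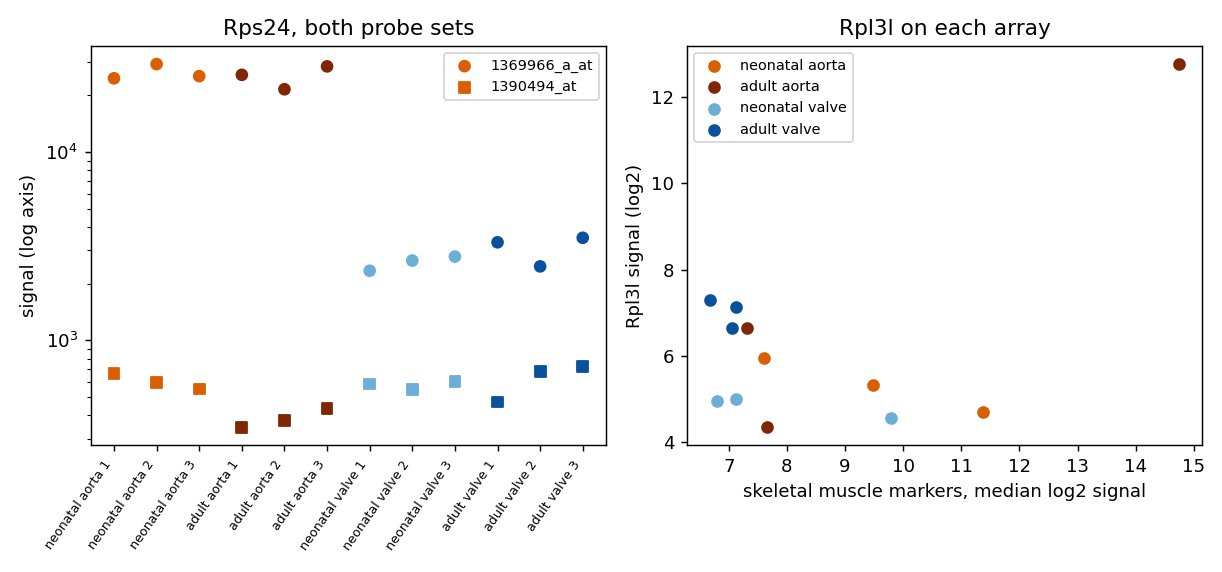
Left, signal (log axis) of the 2 Rps24 probe sets on each of the 12 arrays: the brighter falls from between 21553 and 29323 in aorta to between 2342 and 3505 in valve, and the dimmer stays between 345 and 724. Right, log2 signal of Rpl3l against the median log2 signal of the skeletal muscle markers on each array: adult aorta 1 lies alone at the upper right.

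The probe sets kept apart for their several symbols moved like the members. Of 33, all tested, 29 were lower in neonatal valve (median -0.95) and 27 in adult valve (median -0.93), and 0 were higher. By age 0 of 33 passed in either tissue. Transcripts of near-identical copies share such probe sets, so no single gene is named for them.

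How the arrays are put on 1 scale set the number of genes called, and for some genes the direction, but not the side of the median. With arrays centred on their medians, the median difference of the 40 genes was -0.50 in neonatal and -0.41 in adult tissue, while that of all probe sets moved to 0.24 and 0.34. Relative to all probe sets, the members stood at -0.74 and -0.76; centring shifts every probe set of an array alike and so cannot change these values. With quantile normalization, which forces 1 distribution on all arrays, their median was -0.37 and -0.15, or -0.39 and -0.23 relative to all probe sets. Under at least 1 of the alternatives the direction turned for 11 of 40 genes at birth and for 16 of 40 in adults; at each age 6 of these had passed on the deposited signals. With quantile normalization several genes stood above 0 at both ages. Among them were Rps23 (0.39 and 0.58), Rpl13a (0.28 and 0.41), Rpl3 (0.059 and 0.30), Rps3a (0.25 and 0.11) and Rpl22 (0.023 and 0.14). Under every alternative tried (20 in neonatal and 19 in adult tissue, 6 of them in each leaving out an array), 11 genes were called lower in valve at both ages: Rpl12, Rpl19, Rpl24, Rpl26, Rpl27, Rpl34, Rplp0, Rps15, Rps15a, Rps27l and Rps9. Of these, Rps27l had passed the filter on low signal through the aorta arrays. Each of the 11 genes has 1 probe set of its own, so alternatives that pick another of a gene's own probe sets could not change its call.

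**Figure D5:**
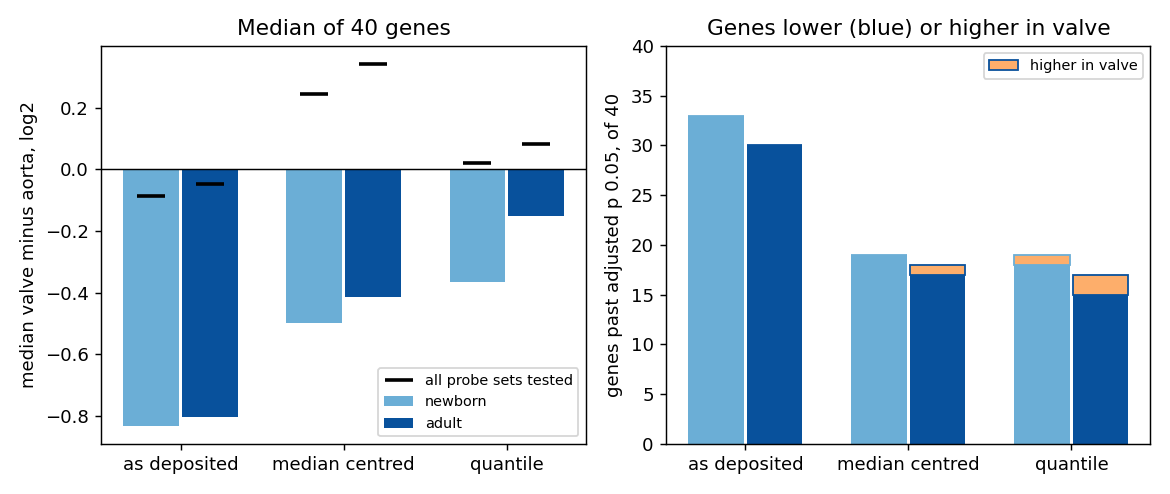
Left, median valve minus aorta difference in log2 of the 40 ribosomal protein genes (bars) and of all probe sets tested (ticks) under 3 scalings; right, how many of the 40 genes passed. The medians of the genes stay below 0 under all 3, the count lower in valve falls from 33 and 30 to 19 and 17 with median centring and to 18 and 15 with quantile normalization, and at most 2 genes are called higher.

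Some markers of other cell types were called between the tissues as well. Of all probe sets 19.3% were lower and 13.3% higher in neonatal valve, and 19.9% were lower and 17.3% higher in adult valve. Of 6 adipocyte markers tested 5 were lower in neonatal and 4 in adult valve. Their summed signal was 32629 to 59150 on neonatal aorta, 6550 to 94166 on adult aorta, 3091 to 5389 on neonatal valve and 3280 to 8350 on adult valve arrays. Of 8 smooth muscle markers 2 and 3 were lower in valve, with sums of 33196 to 47265, 34617 to 145800, 12483 to 19043 and 8084 to 53102 in the same order. Of 10 macrophage markers 6 were lower in neonatal valve, and 1 was higher in adult valve.

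Of 11 cardiac muscle markers 1 was higher in neonatal and 6 in adult valve, with sums of 48563 to 77446 on neonatal aorta, 110309 to 127990 on neonatal valve, 1193 to 30842 on adult aorta and 5904 to 108425 on adult valve arrays. Of 7 endothelial markers 1 was lower in neonatal and 3 were higher in adult valve, with adult sums of 4023 to 8590 in aorta and 11735 to 33913 in valve. Of 6 red blood cell markers 1 was lower at each age, with neonatal sums of 32012 to 38789 in aorta and 14539 to 18602 in valve. Of 4 thymocyte markers 1 was lower at each age and 1 higher in adults, of 13 markers of dividing cells 2 were lower and 1 higher in adults, and of 9 skeletal muscle and 8 squamous markers 0 passed. In these lists of cell type markers, counts of 1 or 2 are near or below the shares of all probe sets given above. The part of these cell types in the ribosomal protein differences was not tested.

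Rpl3l encodes the paralog of Rpl3 that replaces it in ribosomes of skeletal and cardiac muscle. It read 6923 on adult aorta 1 and between 20.3 and 156 on the other 11 arrays, and so failed the filter. On adult aorta 1 the markers of skeletal muscle had a median log2 signal of 14.7, against 6.68 to 11.4 on the others, and a summed signal of 246450 against 5399 to 44313. Neonatal aorta 2, with the next highest median of these markers (11.4), read 26.0 for Rpl3l. The arrays with the highest summed cardiac muscle markers read low for Rpl3l as well. These were the neonatal valve arrays (sums of 110309 to 127990, Rpl3l 23.8 to 31.9) and adult valve 2 (108425, Rpl3l 99.9). Rpl28 read 20.3 to 87.3 on aorta and 104 to 179 on valve arrays, and Rpl30 read 95.2 to 230 on aorta and 18.2 to 57.1 on valve arrays. These 2 probe sets moved in opposite directions between tissues. Both failed the filter on low signal and were not tested. The near absent control RNAs read up to 54.6, which lies within the values of both probe sets. Whether these low signals report the mRNAs of Rpl28 and Rpl30 was not examined.

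Other genes of the protein synthesis machinery did not move as one between the tissues. Of 4 further ribosomal proteins measured, Rpsa, a 40S protein and laminin receptor, was lower in valve at birth (limma adjusted p = 0.000881) and by -1.01 in adults (SE 0.15), and Rack1, a scaffold on the 40S head, by -0.62 and -0.59 (SE 0.18). The paralogs Rpl7l1 (-0.44 and -0.41, SE 0.18) and Rpl26l1 (-0.40 and 0.16, SE 0.34) did not pass. Of 34 translation factor genes 7 were lower and 2 higher in neonatal valve (median -0.23), and 9 were lower and 2 higher in adult valve (median -0.27). Of all probe sets 19.3% and 19.9% were lower, so these counts are near the background. The helicase gene Eif4a1 had the largest difference (-2.74 and -2.36, SE 0.51). The scaffold gene Eif4g1 was lower at both ages as well (-1.34 and -1.63, SE 0.34). The initiation factor gene Eif2s3 (0.64 and 1.16, SE 0.19) and the Eif4g1 paralog Eif4g3 (1.03 and 0.66, SE 0.22) were higher. The elongation factor genes Eef1a1 (-0.47, SE 0.16) and Eef2 (-0.55, SE 0.19) were lower at birth, and in adults their differences of -0.38 and -0.51 did not pass.

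Of 44 ribosome biogenesis genes, 2 were higher and 3 lower in neonatal valve (median -0.08), and 9 were higher and 4 lower in adult valve (median 0.20), where 17.3% of all probe sets were higher and 19.9% lower. The other 31 did not pass in adults. Among those higher in adult valve were Rrs1 (1.62, SE 0.33), the small subunit processome gene Utp20 (1.58, SE 0.34) and the helicase gene Ddx21 (1.46, SE 0.38). Nop10 (-0.87, SE 0.19) and Rrp9 (-1.11, SE 0.27) were lower. Mitochondrial ribosomal protein genes were lower in valve in 22 and higher in 4 of 73 at birth (median -0.36), and lower in 44 and higher in 1 in adults (median -0.84), against the same 19.3% and 19.9% of all probe sets lower.

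Of 16 regulators of ribosomal protein synthesis, 4 passed between the tissues at each age, a smaller share than the 32.6% and 37.1% of all probe sets that did. Eif4ebp1, a translational brake that mTOR switches off, was lower in valve by -1.95 and -2.15 (SE 0.31), and it fell with age in valve (-1.21, SE 0.31, limma adjusted p = 0.035). The other age calls were rises of its paralog Eif4ebp2 in aorta (0.81, SE 0.21) and of Deptor (1.78, SE 0.49) and Max (0.97, SE 0.27) in valve. Rps6kb1, the S6 kinase gene, was higher in valve by 1.55 and 1.28 (SE 0.20). The transcription factor gene Mycn was higher in neonatal valve (2.31, SE 0.59), and Deptor, an mTOR inhibitor, was lower there (-1.65, SE 0.49). Ddit4, another inhibitor of the mTOR pathway, was higher in adult valve (1.60, SE 0.42), as was Max, the partner of Myc (0.88, SE 0.27). Mtor itself passed at neither age (0.54 and 0.12, SE 0.23).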

How the data were processed

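The authors deposited intensity values, 1 linear signal per probe set and array. Affymetrix Expression Console and MAS5 are named for them in the submitters' processing notes; program versions are not stated there. Of 31099 probe sets, 57 controls were left out. Symbols came from the array's annotation table. Signals below 1 were set at 1 and log2 was taken, and 18552 probe sets with a signal above the median of all values on at least 3 of 12 arrays were kept. Group means were fitted to all arrays in limma 3.58.1 (R 4.3.3) with eBayes allowing a trend with signal, on 8 residual degrees of freedom. Two-sided p-values were adjusted by Benjamini and Hochberg over all probe sets kept, and the fit was tested on simulated arrays. Named were, in each comparison, up to 12 passing genes with the largest differences each way, genes picked by role and genes whose probe sets disagreed; others were named after their values were seen. The members and lists were chosen with earlier results of these data known. Precision is limited by 3 arrays a group.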

Additional observations from a re-analysis of the deposited data

How the results depend on the processing

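The 40 genes were tested again under other filters, scalings, fits, probe set choices and with arrays left out; 2 alternatives (without the 3 arrays that stood apart, and with the probe sets of several symbols) were chosen after seeing the data. By age 0 genes passed in each alternative except array weights (3 in aorta), and the median moved to -0.22 in aorta and -0.073 in valve with quantile normalization. Between tissues the number passing was 19 (neonatal) and 17 (adult) with quantile normalization, with medians of -0.37 and -0.15, and 19 and 18 with median centring, with medians of -0.50 and -0.41. With the arrays that lack control RNA signal as a block 14 passed in neonatal tissue, and with only the 6 adult arrays 17 passed. With the shared probe sets added, 60 and 55 of 69 passed. Leaving out 1 array gave 25 to 29 and 26 to 33. The replicate numbers do not pair the samples: 18 correlations of same-numbered arrays ran from -0.31 to 0.24, 3 were over 0.1, and in 6 of 18 the best match was the own number; with a replicate block 31 and 29 passed, and 0 by age.

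Between tissues the direction turned under at least 1 alternative for 11 of 40 genes at birth and 16 of 40 in adults, and at each age 6 of these had passed on the deposited signals. The values that follow are for the genes picked by role or by the size of their difference. By age in aorta these were Rps6 at -0.081 (quantile), Rpl39 at 0.036 (array weights), Rpl3 at 0.15 (mean of its probe sets) and 0.40 (dimmer probe set), and Rps27l at 0.089 and Rps24 at 0.026 (control RNA block). In valve they were Rps6 at -0.11 and Rpl3 at -0.077 (quantile), Rps27l at -0.074 (array weights) and Rpl3 at -0.050 and -0.25 (mean, dimmer probe set). For the interaction they were Rps6 at 0.026 (median centring), 0.035 (array weights) and 0.056 (without the 3 arrays), and Rpl3 at -0.20 and -0.65 (mean, dimmer probe set). Between tissues they were Rps6 at 0.031 and Rpl3 at 0.059 (quantile) and Rpl3 at 0.025 (dimmer probe set) at birth. In adults they were Rpl3 at 0.30 (quantile), Rpl39 at -0.36 (array weights) and -0.59 (without the 3 arrays, limma adjusted p = 0.047), and Rps24 at 0.68 (dimmer probe set, and only probe sets of the plain type). Of the genes named by rule, Rps6 and Rpl3 lost their calls most often. Under the control RNA block these genes and Rpl14 (-1.62, limma adjusted p = 0.062) did not pass in neonatal tissue, and without the filter on dim probe sets the neonatal calls of Rps6 and Rpl3 were lost (limma adjusted p = 0.053 and 0.059).

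Leaving out 1 array at a time also turned small values. By age in aorta Rplp0 ran from -0.21 to 0.093, Rpl39 from -0.94 to 0.11, Rpl3 from -0.19 to 0.051 and Rps24 from -0.16 to 0.039. By age in valve Rpl39 ran from -0.0070 to 0.16 and Rps27l from -0.049 to 0.46. The interaction ran from -0.15 to 0.029 for Rps6 and from -0.045 to 1.00 for Rpl39. Between adult tissues Rpl39 ran from -0.59 to 0.46.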
